A study of Mus musculus with 50 samples.

Results

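Transcripts of 4 receptor genes for signalling lysolipids, S1pr1, S1pr2, S1pr3 and Lpar1, were followed over 50 oligonucleotide arrays of mouse neocortex and hippocampus. A probe set was taken as a member when the platform's probe-to-gene table gave it exactly 1 gene symbol and that symbol was one of these genes, which yielded 5 of 12488 probe sets and 4 of the 8251 genes named there. Wild-type mice, mice labelled S1P2-KO (deficient in the receptor encoded by S1pr2) and mice labelled S1P3-KO (deficient in the receptor encoded by S1pr3) were compared, all at 8 weeks of age. Each tissue had 10 wild-type arrays (5 males, 5 females), 10 S1P2-KO arrays (5 males, 5 females) and 5 S1P3-KO arrays (2 males, 3 females). The S1P2-deficient animals have sporadic seizures from week 4 to week 7 and the S1P3-deficient animals do not, so the seizure history goes with genotype. The strain, and the way in which either gene was disrupted, were not given in the sources used here.

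Sphingosine 1-phosphate (S1P) and lysophosphatidic acid (LPA) are lipids released by many cells that act on G protein-coupled receptors of a shared family. The receptors differ in the G proteins they engage: S1P1 works mainly through the inhibitory class, while S1P2 and S1P3 engage several classes. In brain tissue S1P1 is best known from endothelial cells and astrocytes, and the LPA receptor encoded by Lpar1 from neural progenitors and myelinating glia. Whole tissue was measured here, so fewer cells of a type and less RNA per cell cannot be told apart.

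Signals are linear array values as deposited, and a group is summarised by the mean ± SD of its arrays. Differences are log2 estimates ± SE from limma, a linear model fitted to all probe sets at once, on log2(signal + 30.7), a scale that understates the changes of dim genes. The Benjamini-Hochberg adjustment ran over the 8534 probe sets that passed a filter on low values, and an adjusted p below 0.05 was taken as a call. Median array signals lay between 299.6 and 413.8. Control transcripts are probed at both ends, and the log2 of 3' over 5' signal grows as RNA degrades. This 3'/5' ratio was at most 0.749 on 47 arrays and stood above 1 on wild-type replicate 4, S1P2-KO replicate 7 and S1P3-KO replicate 5 of hippocampus, at 1.2, 1.37 and 4.46, called the high-ratio arrays here. The tissue labels went with the summed signal of marker genes. These lists were chosen with earlier results of these data known, so they do not check the labels independently. The summed signal of 8 hippocampus markers was 4005 to 5300 on neocortex arrays and 9769 to 13526 on hippocampus arrays, and that of 12 neocortex markers was 27516 to 35109 against 17040 to 22134.

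All 4 genes had a probe set that passed the filter, and 4 of the 5 probe sets did. S1pr1 had 2 probe sets that disagreed. The one used read 199.8 to 527 and lay above the filter's signal of 132.6 on all 50 arrays. The other read 4.1 to 73.2 with a median of 12.95 and lay below it on all 50. All values for S1pr1 below, by sex and with marker lists included, therefore rest on 1 probe set of a pair. The other did not bear out its level, and whether the one used reads S1pr1 transcript, alone or at all, was not tested. The other members were each read by 1 probe set. The Entrez gene identifiers are 13609 for S1pr1, 14739 for S1pr2, 13610 for S1pr3 and 14745 for Lpar1.

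**Figure D1:**
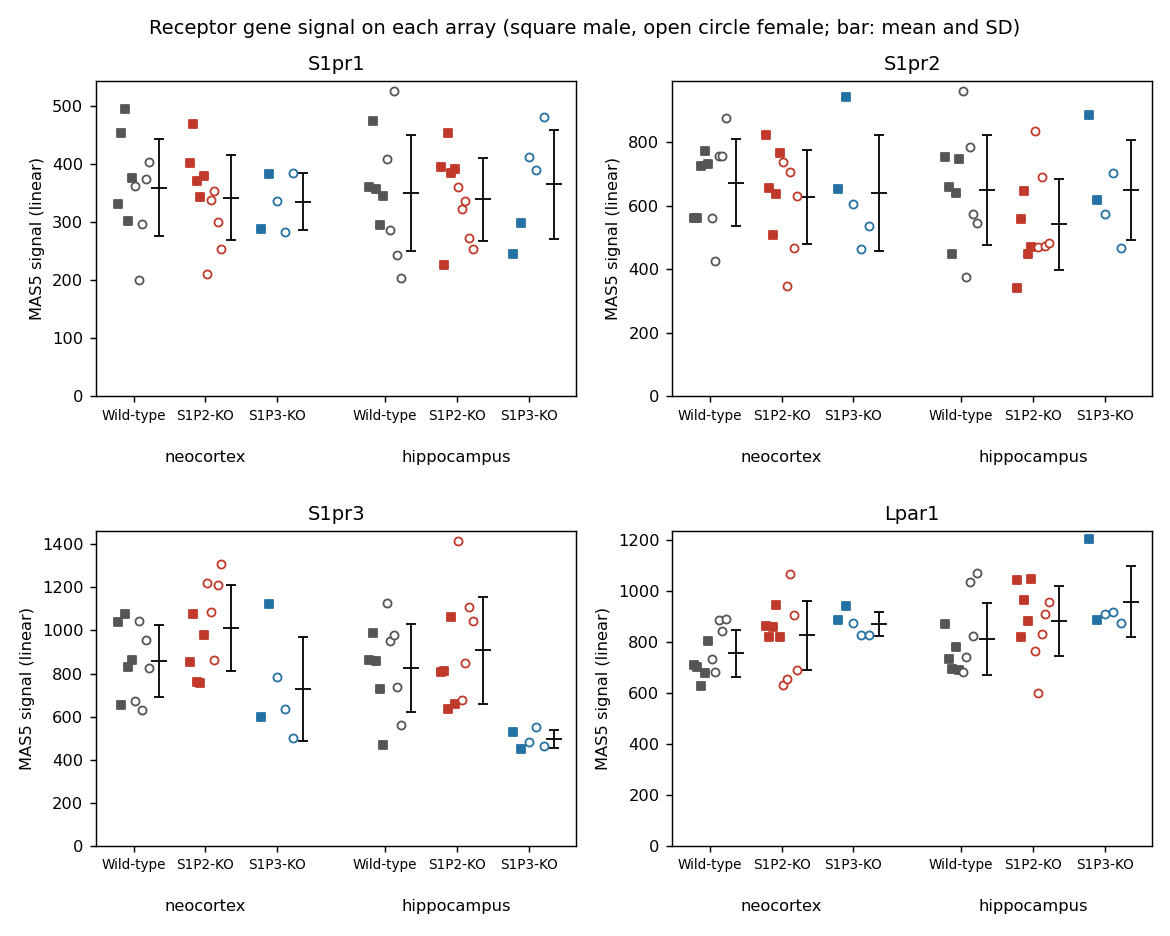
Signal of each receptor gene (linear scale, from 0) on each of the 50 arrays, by genotype and tissue, with filled squares for males, open circles for females and a bar for the mean and SD of the group. The 5 S1P3-KO hippocampus arrays read 451.4 to 551.9 for S1pr3, below all 10 S1P2-KO arrays of that tissue, while the groups overlap in the panels of S1pr1, S1pr2 and Lpar1.

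The genes disrupted in the 2 knockouts were examined first. S1pr2, which couples to several G protein classes, did not differ detectably between wild-type and S1P2-KO. The neocortex signal ran from 425.6 to 875.8 with a median of 727.4 on the 10 wild-type arrays, and from 347.7 to 824.7 with a median of 646.7 on the 10 S1P2-KO arrays. In hippocampus the wild-type arrays ran from 373.9 to 962.2 (median 649.9) and the S1P2-KO arrays from 340.5 to 834.5 (median 478.3). The ranges overlapped in both tissues, although 7 of 10 S1P2-KO arrays in neocortex and 8 of 10 in hippocampus lay below the wild-type median. The limma difference was -0.10 ± 0.14 in neocortex (95% interval -0.39 to 0.19, adjusted p = 0.874) and -0.24 ± 0.16 in hippocampus (-0.57 to 0.09, adjusted p = 0.925). In each of these comparisons 0% of the 8534 probe sets were called by limma, with 746 and 473 at an unadjusted p below 0.05. Where the probe set lies relative to the disrupted part of S1pr2 was not given in the sources used here, so its level does not check the S1P2-KO label, and the arrays are named by their labels throughout.

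Nor did S1pr2 differ detectably on the arrays labelled S1P3-KO. In neocortex replicates 1 to 5 read 653.6, 942.7, 606.5, 462.4 and 535.4, and in hippocampus 885.7, 618.3, 575.3, 702.7 and 465.7. All but 1 of these 10 values lay inside the wild-type range of the same tissue, the exception being replicate 2 of neocortex above it. The differences from wild-type were -0.06 ± 0.17 and 0.02 ± 0.20 in limma (adjusted p = 0.948 and 0.985). Ordered by group mean, S1pr2 ran from S1P2-KO hippocampus (542 ± 144, n = 10) over S1P2-KO neocortex (628 ± 147, n = 10), S1P3-KO neocortex (640.1 ± 184, n = 5), wild-type hippocampus (649 ± 173, n = 10) and S1P3-KO hippocampus (649.5 ± 157, n = 5) to wild-type neocortex (672 ± 137, n = 10). No 2 neighbours in this order differed by more than the larger of their SDs. Sorting by mean brings neighbours close, so this does not compare the groups.

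S1pr3, the receptor gene that signals through several G protein classes, had its lowest signal on the arrays labelled S1P3-KO, above all in hippocampus. Replicates 1 to 5 of S1P3-KO hippocampus read 526.6, 451.4, 480.7, 551.9 and 464.2. The 10 wild-type hippocampus arrays read 470.3 to 1129.1 with a median of 859.8. The S1P3-KO arrays were 5 of the 6 lowest of the 25 hippocampus arrays, with wild-type replicate 5 at 470.3 among them, so both groups overlapped through that array. Every S1P3-KO array lay below the wild-type median, which was the case for 5.66% of all probe sets tested.

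The limma difference of S1pr3 between S1P3-KO and wild-type hippocampus was -0.69 ± 0.18 (95% interval -1.05 to -0.32), a ratio of 0.621 on the offset scale. It ranked 32nd by p among 8534 probe sets (unadjusted p = 0.000631) and missed the threshold at an adjusted p of 0.164. In that comparison 0.0352% of probe sets, or 3, were called, and 0 of the 4 receptor genes. S1P3-KO replicate 5, with the 3'/5' ratio of 4.46, read 464.2. Without the 3 high-ratio arrays the difference was -0.65 ± 0.19 (adjusted p = 0.340). Of 12 astrocyte markers tested there, 1 was called, the filament gene Gfap, which read 4733 ± 1506 in S1P3-KO (n = 5) and 2558 ± 465 in wild-type (n = 10). Over the 12, 5 were higher and 7 lower, with a median of -0.04. Aqp4, a water channel gene chosen after its values were seen, was not called and read 741 ± 839 and 1600.2 ± 1188. The summed signal of the 13 measured astrocyte markers was 52705 to 60131 in S1P3-KO and 50892 to 62345 in wild-type. The part of astrocytes in the S1pr3 difference was not tested.

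In neocortex the same gene varied more among S1P3-KO arrays. Replicates 1 to 5 read 600.5, 1122.2, 786, 637.4 and 500.6. The 10 wild-type arrays lay between 629.2 and 1077.4 with a median of 846.6. Replicate 2 exceeded every wild-type array, while replicates 1 and 5 lay below all of them. The difference was -0.26 ± 0.17 in limma (95% interval -0.60 to 0.08, adjusted p = 0.638), in a comparison with 0% of probe sets called and 895 at an unadjusted p below 0.05. The test of the difference between the tissues gave -0.43 ± 0.25 (adjusted p = 0.875, 0% called and 438 unadjusted), so an unequal S1P3-KO effect on S1pr3 in hippocampus and neocortex was not shown. As for S1pr2, the position of the S1pr3 probe set relative to the disrupted part of the gene was not given in the sources used here, and whether the remaining signal comes from S1pr3 transcript was not tested.

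S1pr3 did not differ detectably between S1P2-KO and wild-type. In neocortex the S1P2-KO arrays read 755.6 to 1309.5 with a median of 1028.7, 8 of the 10 lay above the wild-type median and 5 above every wild-type array. In hippocampus they read 637.4 to 1414.3 with a median of 829.4, below the wild-type median of 859.8. There 6 of the 10 lay below the wild-type median and 1 above every wild-type array. The differences from wild-type were 0.23 ± 0.14 in neocortex (95% interval -0.05 to 0.51, adjusted p = 0.636) and 0.13 ± 0.14 in hippocampus (-0.17 to 0.42, adjusted p = 0.961) in limma. Neither passed the threshold.

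The knockouts were then set against each other. In hippocampus all 10 S1P2-KO arrays lay above all 5 S1P3-KO arrays, the lowest S1P2-KO array at 637.4 and the highest S1P3-KO array at 551.9. Complete separation with S1P2-KO higher was found for 0.082% of probe sets, or 7 of 8534, and for S1pr3 alone among the receptor genes. The difference was 0.82 ± 0.18 (95% interval 0.45 to 1.18), a ratio of 1.76 on the offset scale. It ranked 4th of 8534 by p in limma (unadjusted p = 9.45e-05), with an adjusted p of 0.152, in a comparison where 0% of probe sets were called and 982 had an unadjusted p below 0.05. In neocortex 3 of the 10 S1P2-KO arrays lay above every S1P3-KO array, and the difference was 0.49 ± 0.17 (95% interval 0.15 to 0.83, rank 78, adjusted p = 0.703, 0% called and 506 unadjusted).

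**Figure D2:**
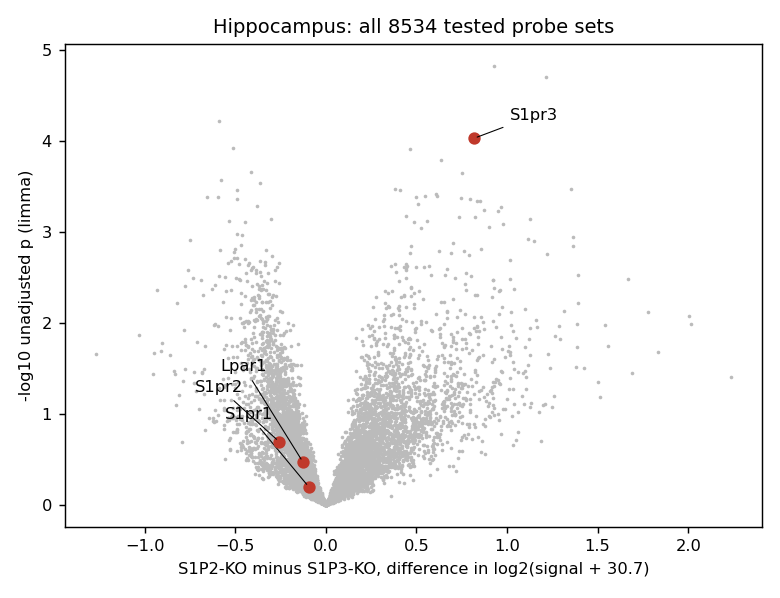
Difference between S1P2-KO and S1P3-KO hippocampus (x axis, log2 scale) against -log10 of the unadjusted limma p (y axis) for the 8534 probe sets tested, in grey, with the receptor genes in red. S1pr3 stands 4th by p at a difference of 0.82, and S1pr1, S1pr2 and Lpar1 lie left of 0 at -0.09, -0.26 and -0.13.

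Both tissues were then combined in a further limma fit, added after the values of each tissue had been seen. It estimated the mean genotype difference over neocortex and hippocampus, with arrays of the same genotype and number as a random block (estimated correlation 0.127). S1pr3 was higher in S1P2-KO than in S1P3-KO by 0.65 ± 0.13 (95% interval 0.39 to 0.92), with an adjusted p of 0.0304 and the smallest p of all probe sets. This comparison called 19 probe sets, or 0.223%, and 1 of the 4 receptor genes. The call was lost, at an adjusted p of 0.0603, once the 3'/5' ratio entered as a covariate (0.61 ± 0.14), and it held without the 3 high-ratio arrays (0.67 ± 0.14, adjusted p = 0.0243). It was also lost without S1P2-KO neocortex replicate 9 (0.64, adjusted p = 0.0580) or S1P3-KO neocortex replicate 1 (0.62, adjusted p = 0.0520), replicate 4 (0.63, adjusted p = 0.0521) or replicate 5 (0.60, adjusted p = 0.0598). The number of probe sets called fell to 0 without any of these 4 arrays.

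Against wild-type over both tissues, S1pr3 in S1P3-KO differed by -0.47 ± 0.13 (95% interval -0.74 to -0.21, adjusted p = 0.0715), short of the threshold, while 51 probe sets, or 0.598%, were called. It passed without S1P3-KO neocortex replicate 2 (-0.57, adjusted p = 0.0233) and without wild-type hippocampus replicate 5 (-0.51, adjusted p = 0.0396). It stayed short without the high-ratio arrays (-0.46, limma adjusted p = 0.0851) and with the 3'/5' ratio as covariate (-0.45, limma adjusted p = 0.0963). Over the alternatives other than single arrays left out, the limma adjusted p reached 0.122. S1pr3 in S1P2-KO differed from wild-type by 0.18 ± 0.11 (adjusted p = 0.635, 0.117% of probe sets called). These contrasts share the wild-type or the S1P3-KO arrays and are not independent of each other. By group mean, S1pr3 ran from S1P3-KO hippocampus (495 ± 42.7, n = 5) over S1P3-KO neocortex (729 ± 242, n = 5), wild-type hippocampus (827 ± 204, n = 10), wild-type neocortex (859 ± 168, n = 10) and S1P2-KO hippocampus (907 ± 247, n = 10) to S1P2-KO neocortex (1012 ± 199, n = 10). Neighbours in this order differed by less than the larger of their SDs, which sorting by mean favours and which does not compare the groups.

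**Figure D3:**
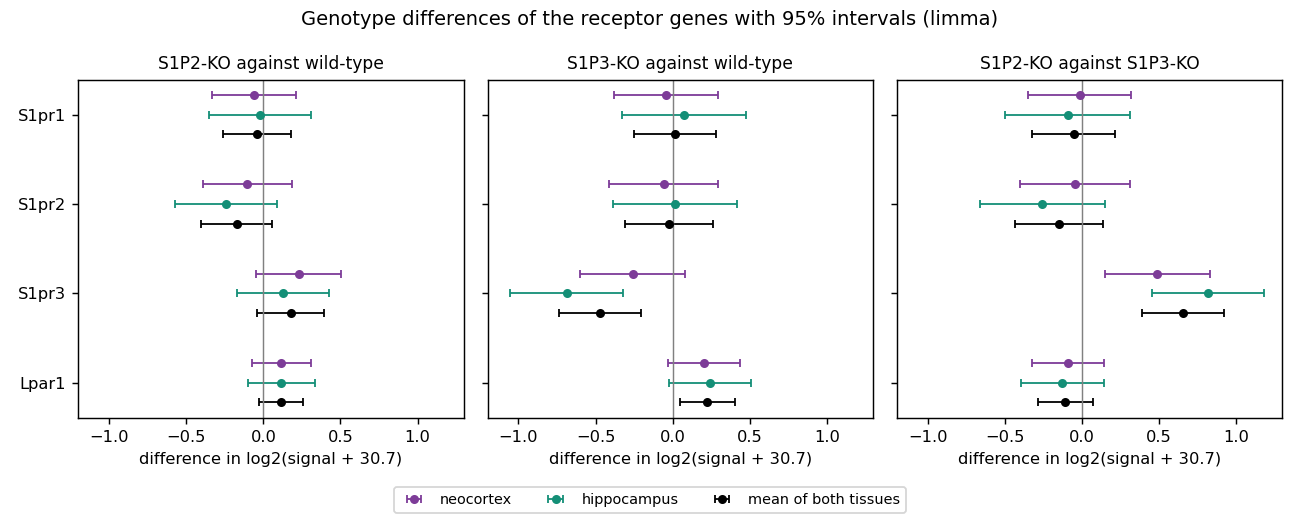
Genotype differences of the 4 receptor genes (x axis, log2 scale) with 95% intervals from limma, in neocortex, in hippocampus and as the mean of both tissues. The intervals of S1pr3 exclude 0 for S1P2-KO against S1P3-KO in each tissue and over both. They also do so for S1P3-KO against wild-type in hippocampus and over both. For Lpar1 the interval of S1P3-KO against wild-type over both tissues excludes 0 (0.05 to 0.40). All this is before adjustment over 8534 probe sets, and the intervals of S1pr1 and S1pr2 all include 0.

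Lpar1, the LPA receptor gene of myelinating glia, had somewhat higher means in both knockouts, within the spread of the arrays. In neocortex S1P3-KO replicates 1 to 5 read 884, 941.8, 872.5, 825.9 and 825.7, against 627.1 to 890.2 (median 720.8) in wild-type. In hippocampus they read 1204.9, 884.7, 907.4, 915.9 and 874.4, against 680.4 to 1068.3 (median 760.2). All 5 arrays lay above the wild-type median in both tissues, as did all 5 for 7.15% of probe sets in neocortex and 6.3% in hippocampus. Only 1 of the 5 exceeded every wild-type array, in either tissue. The limma differences were 0.21 ± 0.11 (95% interval -0.03 to 0.44, adjusted p = 0.552) and 0.24 ± 0.13 (-0.02 to 0.51, adjusted p = 0.553). Over both tissues Lpar1 differed by 0.22 ± 0.09 (95% interval 0.05 to 0.40, adjusted p = 0.261), which was not called.

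On the S1P2-KO arrays Lpar1 read 632 to 1067.8 (median 838.5) in neocortex and 598.6 to 1044.4 (median 896.3) in hippocampus. There 7 and 9 of the 10 arrays lay above the wild-type median. The differences from wild-type were 0.12 ± 0.09 (95% interval -0.07 to 0.31, adjusted p = 0.754) and 0.12 ± 0.11 (-0.10 to 0.33, adjusted p = 0.948) in limma. The knockouts differed from each other by -0.09 ± 0.11 in neocortex and -0.13 ± 0.13 in hippocampus (adjusted p = 0.930 and 0.704). Group means ran from 755 ± 93.2 in wild-type neocortex (n = 10) over wild-type hippocampus (811 ± 140, n = 10), S1P2-KO neocortex (825 ± 136, n = 10), S1P3-KO neocortex (870.0 ± 48.1, n = 5) and S1P2-KO hippocampus (881 ± 136, n = 10) to 957 ± 139 in S1P3-KO hippocampus (n = 5), with neighbours closer than the larger of their SDs. That closeness is favoured by sorting and does not compare the groups. In S1P3-KO hippocampus 5 of 9 tested myelin markers were higher than in wild-type and 0 passed the threshold. The summed signal of the 10 measured myelin markers ran from 37831 to 53570 there and from 33996 to 44743 in wild-type, and no measured list member was at 0 on any array. The part of myelin in the Lpar1 difference was not tested.

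S1pr1, the receptor gene best known from endothelium, showed no detectable genotype difference on the probe set used. Wild-type arrays read 199.8 to 494.5 (median 368.6) in neocortex and 204 to 527 (median 350.6) in hippocampus. S1P2-KO arrays read 210.5 to 468.9 (median 348.7) and 226.2 to 452.9 (median 348.7). S1P3-KO replicates 1 to 5 read 288.7, 382.4, 335.8, 283.7 and 385.3 in neocortex and 245.7, 298.2, 411.8, 389.3 and 481.7 in hippocampus. No knockout array left the wild-type range of its tissue. The limma differences from wild-type were -0.06 ± 0.13 and -0.02 ± 0.16 for S1P2-KO and -0.04 ± 0.16 and 0.07 ± 0.20 for S1P3-KO, in neocortex and hippocampus, with adjusted p of at least 0.928. Their 95% intervals reached at most -0.38 and 0.47. Group means lay between 335 ± 48.9 in S1P3-KO neocortex (n = 5) and 365 ± 93.7 in S1P3-KO hippocampus (n = 5), with wild-type at 359 ± 83.8 and 350.3 ± 100.2 and S1P2-KO at 342 ± 73.7 and 339.5 ± 71.5 in neocortex and hippocampus (n = 10 each).

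No receptor gene differed detectably between the tissues. Between wild-type hippocampus and neocortex the limma differences were -0.05 ± 0.14 for S1pr1, -0.07 ± 0.15 for S1pr2, -0.07 ± 0.14 for S1pr3 and 0.09 ± 0.10 for Lpar1, with adjusted p of 0.603 to 0.876. None of the 4 was called, in a comparison that called 14.6% of all probe sets, 7.83% higher and 6.74% lower in hippocampus. In S1P2-KO 14.7% and in S1P3-KO 12% of probe sets were called between tissues, again with none of the 4. The nearest was S1pr3 in S1P3-KO, at -0.50 ± 0.20 in hippocampus against neocortex (adjusted p = 0.102). Without S1P3-KO neocortex replicate 5 this difference was -0.62 (adjusted p = 0.0469), and over the other arrays left out it was as small as -0.31. For S1pr3 the S1P2-KO effect in hippocampus minus that in neocortex was -0.10 ± 0.20, in a limma comparison with 0% of probe sets called and 222 at an unadjusted p below 0.05.

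Sex was compared over the genotypes in each tissue. S1pr1 in females stood at -0.27 ± 0.12 against males in neocortex (unadjusted p = 0.034, adjusted p = 0.785 in limma) and differed by -0.04 ± 0.14 in hippocampus. No member was called, in comparisons with 0.0586% of probe sets called in either tissue. In S1P3-KO hippocampus S1pr1 ran the other way, with 245.7 and 298.2 in the 2 males and 389.3 to 481.7 in the 3 females. This was not tested within the group, and 10.1% of all probe sets separated its sexes in that direction.

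The S1P2-KO effect on Lpar1 and S1pr3 was also read by sex, in a fit added after the values had been seen. In males Lpar1 went from 703 ± 63.9 in wild-type to 860.2 ± 50.6 in S1P2-KO neocortex, and from 753 ± 74.3 to 950.3 ± 99.0 in hippocampus (n = 5 each). In females it read 806 ± 94.3 and 789.6 ± 190.1 in neocortex, and 869.8 ± 174 and 813 ± 140.4 in hippocampus (n = 5 each). Male S1P2-KO arrays in neocortex, from 818.7 up, lay above every male wild-type array, the highest of which read 802.6, a separation that 1.73% of all probe sets showed, while the female groups overlapped. In hippocampus the male groups overlapped, with wild-type up to 868.9 and S1P2-KO from 818.9. The effect in females minus that in males was -0.33 ± 0.18 in neocortex and -0.41 ± 0.20 in hippocampus in limma (unadjusted p = 0.0744 and 0.0492, adjusted p = 0.678 and 0.898). For S1pr3 the neocortex means were 893 ± 171.5 and 886 ± 140.4 in males and 825 ± 177 and 1138 ± 173 in females (n = 5 each), a difference between the effects of 0.46 ± 0.25 (adjusted p = 0.679). In hippocampus that difference for S1pr3 was 0.17 ± 0.29 (limma adjusted p = 0.971). With 0% of probe sets called in either tissue, and 658 and 455 at an unadjusted p below 0.05, a sex-dependent effect was not shown for these genes.

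Over the 13 comparisons within and between tissues, 0 of the 52 limma tests of the 4 genes were called and 5 had an unadjusted p below 0.05. Of all probe sets, 2.6% to 26.5% had such a p, depending on the comparison, so the count does not set these genes apart. Of the 5 tests, 4 were for S1pr3 and 1 was for S1pr1 in the comparison of sexes in neocortex. In the comparisons of these 5 tests, 5.93% to 25.3% of all probe sets had such a p.

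Genes around the receptors were taken from 3 lists. The related receptor genes were tested for 2 of 12, Gpr3 and Gpr12, orphan receptors of the same branch, because S1pr4, Cnr1 and Cnr2 lay below the filter and the other 7 had no probe set named by a single symbol here. Of 22 listed genes that make, move or degrade S1P and LPA, 7 were tested, and of 11 listed G protein alpha subunits 9. Sphk1, Apom, Gna14 and Gna15 lay below the filter. The other supply and breakdown genes, Enpp2 and Spns2 among them, had no probe set named by a single symbol here. None of the 18 tested genes was called in any of the 6 genotype comparisons of single tissues. Between wild-type tissues 2 genes were called higher and 2 lower in hippocampus, beside 7.83% and 6.74% of all probe sets. Plpp3, a phosphatase that degrades LPA and S1P outside the cell, was higher by 0.43 ± 0.10 (adjusted p = 0.00203) and Gna12, an alpha subunit of widespread expression, by 0.31 ± 0.11 (adjusted p = 0.0466). Gpr3 was lower at -1.38 ± 0.29 (868 ± 265 in neocortex and 365 ± 218 in hippocampus, n = 10 each, adjusted p = 0.000416), and Gnao1, an abundant neuronal alpha subunit, at -0.17 ± 0.06 (adjusted p = 0.0289).

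The same contrast was read in the knockouts. In S1P2-KO 1 gene was called higher in hippocampus, Plpp3 (0.41 ± 0.10, adjusted p = 0.00331), and 2 lower, Gpr3 (-1.31 ± 0.29, adjusted p = 0.000806) and Gnao1 (-0.17 ± 0.06, adjusted p = 0.0306), beside 7.62% and 7.09% of all probe sets. In S1P3-KO 1 was called higher, Plpp3 (0.42 ± 0.15, adjusted p = 0.0480), and 3 lower, Gpr3 (-1.69 ± 0.42, adjusted p = 0.00374), Gna13 (-1.05 ± 0.29, adjusted p = 0.0121) and Gnaz (-1.15 ± 0.38, adjusted p = 0.0409), beside 5.99% and 6% of all probe sets. Without the high-ratio arrays the S1P3-KO calls of Plpp3 (0.35, adjusted p = 0.143) and Gnaz (-0.33, adjusted p = 0.231) were lost, and those of Gpr3 (-1.66, adjusted p = 0.00275) and Gna13 (-0.81, adjusted p = 0.0410) held.

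In S1P3-KO hippocampus, where S1pr3 read lowest, all 9 alpha subunit genes lay below wild-type with a median of -0.23. Of all 8534 probe sets 4450 lay below, with a median of -0.01. No alpha subunit gene passed the threshold. Without the 3 high-ratio arrays 7 of 9 lay below, with a median of -0.10. Except where stated, the values that follow keep these 3 arrays. The smallest p among the alpha subunits were those of Gna13, which stood at -0.73 ± 0.31 (adjusted p = 0.474), and Gnai3, of the inhibitory class, at -0.30 ± 0.16 (adjusted p = 0.552). Of the 7 supply and breakdown genes 3 were higher and 4 lower, with a median of -0.02 (-0.09 without the high-ratio arrays). Both related receptors were lower. The smallest p were those of Sphk2, an S1P-producing kinase (-0.26 ± 0.24, adjusted p = 0.748), and Plpp3 (-0.11 ± 0.13, adjusted p = 0.814), with Gpr12 at -0.09 ± 0.09 (adjusted p = 0.793) and Gpr3 at -0.34 ± 0.45 (adjusted p = 0.849). In S1P3-KO neocortex the alpha subunits with the smallest p were Gnao1 (-0.15 ± 0.06, adjusted p = 0.354) and Gnaz (0.31 ± 0.13, adjusted p = 0.411). In S1P2-KO Gnai1, of the inhibitory class, gave the smallest p of that list in neocortex (-0.13 ± 0.07, adjusted p = 0.567) and in hippocampus (-0.21 ± 0.09, adjusted p = 0.867), followed by Gnai2 (0.11 ± 0.07, adjusted p = 0.647) and Gnao1 (-0.05 ± 0.07, adjusted p = 0.968).

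**Figure D4:**
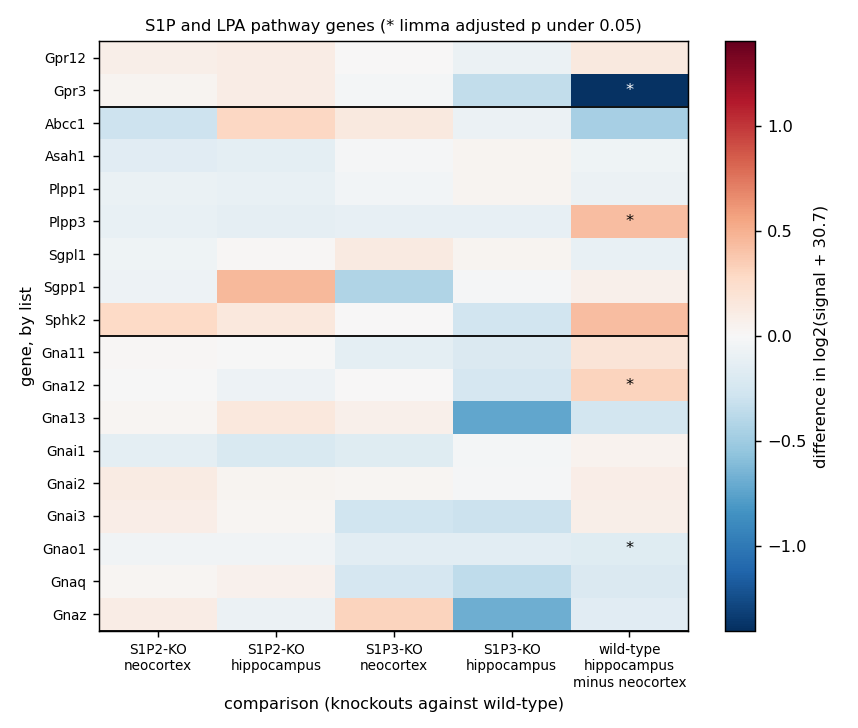
Differences (colour, log2 scale) of 18 tested pathway genes, in rows by list, for either knockout against wild-type in each tissue and for wild-type hippocampus against neocortex, with asterisks at a limma adjusted p below 0.05. The asterisks fall in the tissue column, at Gpr3, Plpp3, Gna12 and Gnao1, and the S1P3-KO hippocampus column is below 0 in all 9 alpha subunit rows. Without the high-ratio arrays 7 of these 9 lay below 0.

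Variation between arrays of 1 genotype was set against the mean level of 8 cell type marker lists, in each tissue over 25 arrays and with genotype means removed. Of 64 relations 1 passed a two-sided permutation test within genotypes after adjustment over all of them. S1pr1 in neocortex went with 12 endothelial markers (r = 0.67, permutation p = 0.00065, adjusted p = 0.0416, Spearman correlation 0.56 with permutation p = 0.0055 and adjusted p = 0.121). Without the 2 arrays farthest from the median of the endothelial mean r was 0.50. In hippocampus the same pair gave r = -0.14 (permutation p = 0.5, Spearman correlation -0.10). With a pseudocount at the 25th percentile or with quantile normalization the neocortex relation missed the threshold (r = 0.64 and 0.62, adjusted permutation p = 0.0762 and 0.0691).

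Of the 10 relations with an unadjusted permutation p below 0.05, 7 were for Lpar1. Lpar1 went with the astrocyte list (r = 0.60 in neocortex, 0.50 in hippocampus), the oligodendrocyte and myelin list (0.49 and 0.54) and the neuron list (0.48 and 0.47), and with the mural cell list in neocortex (0.52). Adjusted permutation p-values were 0.0969 to 0.268, so none passed. In hippocampus the astrocyte value fell to 0.28 without the 2 farthest arrays, and the myelin value was 0.56. S1pr2 gave r = 0.44 with both the astrocyte and the myelin list in neocortex (adjusted permutation p = 0.236 for each), and S1pr3 was in none of the 10. Without the high-ratio arrays, however, S1pr3 in hippocampus went from r = -0.20 to -0.54 with the astrocyte list and from -0.33 to -0.59 with the myelin list (adjusted permutation p = 0.0984 for each), and Lpar1 from 0.50 to 0.26 with the astrocyte list. All lists share the array and its RNA quality, and the part of these in the relations was not tested.

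**Figure D5:**
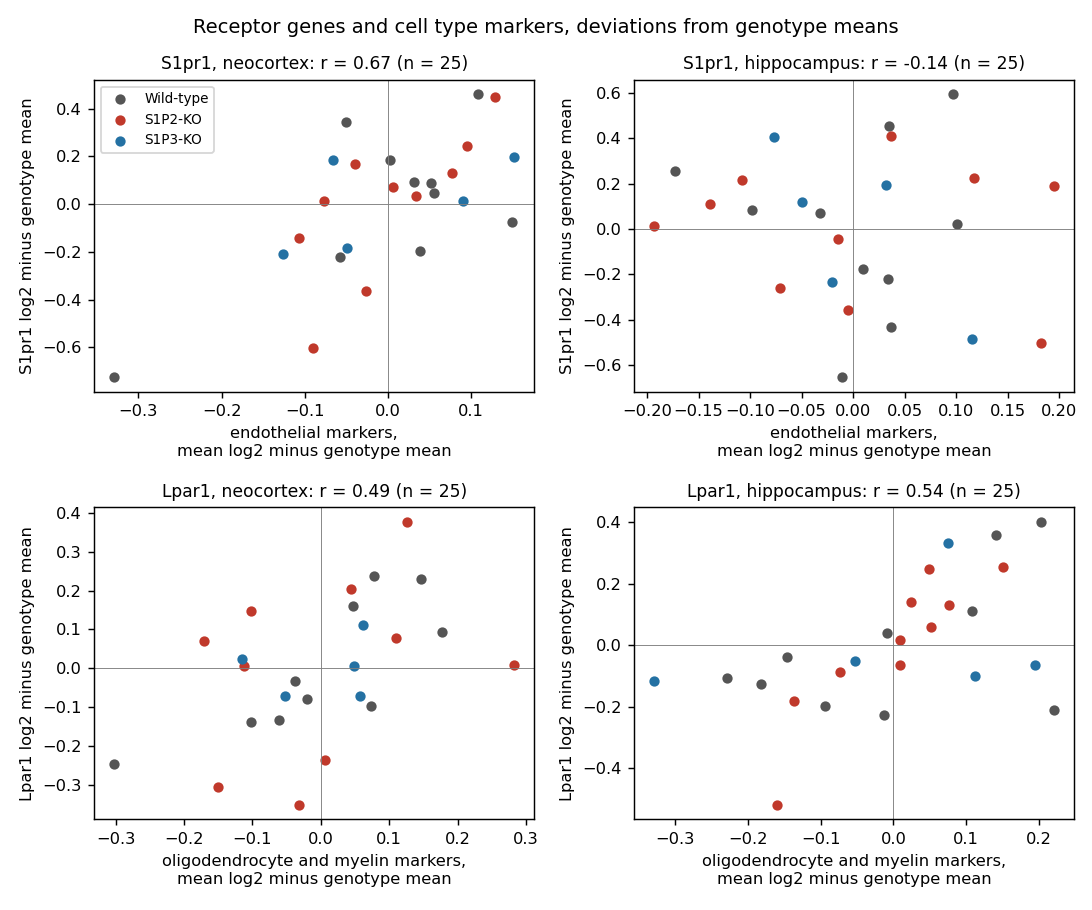
Level of a receptor gene (y axis) against the mean level of a marker list (x axis), both as log2 deviations from the genotype mean, with 1 point per array coloured by genotype. S1pr1 and the endothelial list give r = 0.67 in neocortex, with 1 wild-type array at the lower left, and r = -0.14 in hippocampus, whereas Lpar1 and the myelin list give 0.49 and 0.54.

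Correlations between members were low. Over the 6 pairs of receptor genes and both tissues, r of the deviations ran from -0.34 (S1pr3 and Lpar1, neocortex) to 0.38 (S1pr2 and Lpar1, neocortex), each over 25 arrays. Arrays of the same genotype and number in the 2 tissues gave r = 0.50 for Lpar1, higher than for 92.9% of all probe sets, and 0.10, 0.09 and 0.03 for S1pr1, S1pr2 and S1pr3, where the median probe set gave 0.14. No label says that such arrays come from 1 mouse.

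The genes most like each receptor gene were sought among 6349 genes by the lower of the r values in neocortex and hippocampus, over 25 arrays each. For S1pr3 these were Bok, a relative of the BCL2 apoptosis regulators (0.60), Snrpb, a splicing protein (0.60), Svil, an actin-binding protein (0.59), Usp3, a deubiquitinase (0.57), and Tgfb1i1, a focal adhesion protein (0.57). For Lpar1 they were Nr2c1 (0.61), the adhesion receptor Celsr2 (0.61), the centriolar satellite protein Pcm1 (0.59), the glutamate receptor subunit Gria1 (0.59) and Sfpq (0.59). For S1pr2 they were Mybl2 (0.59), Lrrc23 (0.57), Tcf3 (0.54), Pom121 (0.53) and Mdh1 (0.51). S1pr1 had the lowest values, with Ftsj3 (0.47), Zfp688 (0.46), Mrm3 (0.45), Pabpc2 (0.45) and Etfa (0.45). The highest of so many correlations are large by selection, and these values are a description.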

How the data were processed

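The authors deposited linear intensities, 1 for every probe set of an array, which are MAS5 signals per the submitters' processing notes. Their mean after trimming 2% at either end was 1000.56 to 1000.66 on every array, so they were used unscaled. Per the labels' protocols, 12 µg of TRIzol-extracted RNA was labelled per array. Groups and sexes were taken from the titles, which call the replicates biological, since the design text gives other group sizes. Precision is limited by the number of arrays.

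Levels are log2(signal + 30.7), the offset being the 10th percentile of the deposited signals. Probe sets whose mean lay above the 30th percentile (132.6, with the same offset) were tested, 8534 in all after 66 control probe sets were removed. Of all probe sets, 10833 had 1 symbol, 396 several and 1259 none here, and 10817 were matched to RefSeq (GRCm38.p6) by gene identifier for names alone. A gene stands by its brightest probe set. limma 3.58.1 in R 4.3.3 was fitted per tissue over 3 genotypes with sex, or over all 50 arrays for contrasts between tissues, with eBayes trend and Benjamini-Hochberg adjustment. Permutation tests used 100000 resamples.

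The 4 members are named in every comparison, of each pathway list, where described, the genes called or otherwise up to 2 of smallest p, and the 5 most similar genes. The members and lists (4 of pathway genes, 10 of markers) were chosen with earlier results of these data known. Of the pathway lists, 3 are described, and the other is not reported here. Other pseudocounts, filters, covariates, weights, normalization, blocks and left-out arrays were tried as alternatives. The fit was tested on simulated data of independent normal noise. In these, 67, 67 and 66 probe sets were shifted at once by 0.5, 1 and 2 (log2). With the wild-type and S1P3-KO hippocampus groups it recovered 40.3% of 67 shifts of 0.5 and 71.6% of 67 shifts of 1. So many shifts ease the adjusted threshold. The real comparison called 3 probe sets, so these shares do not give its sensitivity.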

Additional observations from a re-analysis of the deposited data

Results flagged for a closer look

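In the S1P3-KO hippocampus group of 5 arrays, replicate 1 read 1204.9 for Lpar1, while the next highest array read 915.9. The gap was 0.874 of the group's whole range, above the critical value of 0.71 for 5 arrays. Such a gap was looked for in 24 groups of arrays, and chance alone marks about 1 group in 20. The same array was also the highest of its group for S1pr2, at 885.7, and the lowest for S1pr1, at 245.7. Without it the Lpar1 difference from wild-type hippocampus was 0.16 in place of 0.24, and neither value was called by limma.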

How the results depend on the processing

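Of 2240 values of the 4 receptor genes under alternatives, 2085 kept their direction and their side of the threshold, 146 changed sign (68 of S1pr1, whose differences lie near 0), 4 became calls and 5 lost one. S1pr3 between the knockouts over both tissues was the only call among the 72 main results, and all 5 losses were of it. The other results were uncalled from the start, so staying uncalled says little of their stability. The causes were not tested. Leaving out arrays lowers the number of samples, and the replicate block lowers the number behind the S1P3-KO differences. The fit of both tissues and the split by sex, with their alternatives, were chosen after seeing the data.

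Numbers of probe sets called moved as follows. With the 3'/5' ratio as covariate they were 1 in place of 0 for S1P2-KO against wild-type neocortex, 23 in place of 0 for S1P3-KO against wild-type neocortex, 1 in place of 0 for S1P2-KO against S1P3-KO in either tissue, and 659 in place of 1023 between the tissues of S1P3-KO. Over both tissues they were 18 in place of 10 (S1P2-KO against wild-type) and 1 in place of 19 (S1P2-KO against S1P3-KO). Without the high-ratio arrays S1P3-KO against wild-type hippocampus gave 1 in place of 3, and the 3 comparisons over both tissues 35, 77 and 6 in place of 10, 51 and 19. Array weights gave 8 for S1P2-KO against wild-type neocortex, 2 for S1P2-KO against S1P3-KO hippocampus and 632 between the tissues of S1P3-KO. The sexes, at 5 in each tissue, gave 2 and 3 with a pseudocount at the 5th percentile and 1 and 2 with a filter at the median. A fit of only the 2 genotypes gave 0 for S1P3-KO against wild-type hippocampus. Quantile normalization gave 6 for S1P2-KO against S1P3-KO over both tissues and, like a pseudocount at the 25th percentile, left 0 of the marker correlations.

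No label pairs same-numbered arrays. Their correlation exceeded 0.1 in 1 of 10 pairs of wild-type and S1P2-KO neocortex, and between the tissues of a genotype in 6 of 10 (wild-type, median 0.10), 9 of 10 (S1P2-KO, median 0.15) and 2 of 5 pairs (S1P3-KO, median 0.030), with medians of -0.013, -0.032 and -0.0084 for other numbers, so not in every pair. With the block the tissue contrasts called 1542, 1488 and 1324 probe sets and still no receptor gene (S1pr3 in S1P3-KO, adjusted p = 0.0831). The replicate number as a block gave 8 calls for S1P2-KO against wild-type, 87 for S1P3-KO against wild-type and 47 for S1P2-KO against S1P3-KO in neocortex, and 0 for S1P3-KO against wild-type hippocampus. That fit kept the sex term, and replicates 3 to 5 are female in S1P3-KO but male in the other genotypes. Its S1P3-KO differences therefore rest on male replicates 1 and 2 of each tissue. Over both tissues, the fit with no replicate block gave 19, 104 and 47 calls, and S1pr3 in S1P3-KO against wild-type then passed (-0.47, adjusted p = 0.0374). With the replicate number as a block, differences that rest on those 2 S1P3-KO arrays turned sign. In neocortex these were S1P3-KO against wild-type (S1pr2 0.23, S1pr3 0.0032) and S1P2-KO against S1P3-KO (S1pr1 0.25), and in hippocampus both for S1pr1 (-0.36 and 0.34).

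Other sign changes were small. For S1pr1 they were 0.038 and 0.051 (neocortex, S1P2-KO and S1P3-KO against wild-type), -0.0030 (hippocampus, S1P3-KO), -0.046 (tissues of S1P3-KO), -0.020 (both tissues, S1P3-KO) and 0.0016 (sex by S1P2-KO, neocortex) with the ratio covariate. Without the high-ratio arrays they were -0.059 and 0.012 (hippocampus, S1P3-KO against wild-type and S1P2-KO against S1P3-KO), -0.038 (tissues of S1P3-KO), -0.044 (both tissues, S1P3-KO), -0.016 (S1P3-KO effect between tissues) and 0.018 (sex by S1P2-KO, hippocampus). The mean of the S1pr1 probe sets gave 0.091 and 0.16 (neocortex, S1P2-KO against wild-type and S1P3-KO), 0.063 (sexes, hippocampus), 0.024 (wild-type tissues) and -0.11 (S1P2-KO effect between tissues). Quantile normalization gave 0.0084 (sexes, hippocampus) and 0.0048 (sex by S1P2-KO, hippocampus), and no sex covariate 0.011 (S1P2-KO against S1P3-KO, neocortex). For S1pr2 array weights gave 0.027 (S1P2-KO against S1P3-KO, neocortex), and over both tissues S1P3-KO against wild-type was 0.019 with quantile normalization, 0.032 without the high-ratio arrays and 0.017 with the covariate. Lpar1 between the sexes in neocortex was 0.012 with quantile normalization, 0.0035 with the covariate and 0.0013 with array weights.

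Leaving out each array in turn, calls ranged from 0 to 8, 0 to 10 and 0 to 1 in neocortex (S1P2-KO and S1P3-KO against wild-type, S1P2-KO against S1P3-KO), from 0 to 1, 0 to 12 and 0 to 4 in hippocampus, from 7 to 21, 20 to 83 and 0 to 49 over both tissues, and from 676 to 1203 between the tissues of S1P3-KO, the lowest without hippocampus replicate 5. The sex interaction ranged from 0 to 1 in either tissue. S1pr1 ranged from -0.12 to 0.054 and -0.11 to 0.059 in neocortex (S1P3-KO against wild-type, S1P2-KO against S1P3-KO), from -0.095 to 0.051, -0.034 to 0.22 and -0.24 to 0.013 in the hippocampus comparisons, and from -0.11 to 0.015 between the sexes there. Between tissues it ranged from -0.12 to 0.027, -0.063 to 0.052 and -0.038 to 0.21 (wild-type, S1P2-KO, S1P3-KO), with -0.035 to 0.11 for the S1P2-KO effect, -0.034 to 0.080 over both tissues and -0.19 to 0.14 for sex by S1P2-KO in hippocampus. S1pr2 ranged from -0.19 to 0.021 and -0.12 to 0.082 in neocortex, -0.12 to 0.12 in hippocampus (S1P3-KO against wild-type), -0.051 to 0.074 between the sexes there, -0.14 to 0.016 and -0.12 to 0.13 between tissues (wild-type, S1P3-KO), -0.057 to 0.20 for the S1P3-KO effect between tissues and -0.089 to 0.030 over both tissues. S1pr3 ranged from -0.011 to 0.11 between the sexes in neocortex, -0.12 to 0.0032 and -0.62 to -0.31 between tissues (wild-type, S1P3-KO), and -0.57 to -0.42 and 0.60 to 0.75 over both tissues (S1P3-KO against wild-type, S1P2-KO against S1P3-KO). Lpar1 ranged from -0.042 to 0.026 between the sexes in neocortex and from -0.040 to 0.058 and -0.047 to 0.092 for the S1P2-KO and S1P3-KO effects between tissues.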
